A study of Homo sapiens with 48 samples.

Results

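The 8 genes described here, CCN1, CCN2, ANKRD1, AMOTL1, AMOTL2, LATS2, AJUBA and AXL, are commonly used as targets of the coactivator YAP and were taken by symbol from a count table of 60610 Ensembl genes. The table gave all 8 genes under these symbols as protein coding, with the identifiers ENSG00000142871, ENSG00000118523, ENSG00000148677, ENSG00000166025, ENSG00000114019, ENSG00000150457, ENSG00000129474 and ENSG00000167601 in that order. RefSeq places them on GRCh38 at chr1:85580761-85583950 (CCN1), chr6:131948176-131951372 (CCN2), chr10:90912096-90921087 (ANKRD1), chr11:94706460-94876748 (AMOTL1), chr3:134355345-134375417 (AMOTL2), chr13:20973036-21061586 (LATS2), chr14:22971177-22982551 (AJUBA) and chr19:41219223-41261766 (AXL).

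YAP and its relative TAZ (gene WWTR1) carry the output of the Hippo pathway. The kinases MST (STK3, STK4) activate the kinases LATS1 and LATS2, which phosphorylate YAP and TAZ and keep them out of the nucleus. Unphosphorylated YAP and TAZ bind the TEAD factors on DNA and raise transcription of genes that include those of their own inhibitors, among them LATS2 and AMOTL2. Receptors coupled to G12/13 or Gq proteins, the actin cytoskeleton and growth factor receptors are known inputs of the pathway, and CCN1, CCN2 and ANKRD1 are also known as targets of the actin-dependent factors MRTF and SRF.

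The cells were HEK293, a human embryonic kidney line, of 1 clone (limiting dilution, with puromycin as the selection agent) that stably expressed a transfected AT1R, the type 1 angiotensin II receptor encoded by AGTR1. Every group carried this transgene, and no parental cells were among the libraries. In serum-free DMEM the cells received no stimulus (control), 1 nM angiotensin II (AII), 10 µg/L epidermal growth factor (EGF) or AII + EGF together, for 6 h or 24 h, and polyadenylated RNA was sequenced. The labels gave 6 libraries to each of the 8 groups and did not say whether they came from separate cultures, so p-values measure the spread between libraries.

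Of the 48 libraries 38 were used, with 17.8 to 30 M counted fragments each. Among all 1128 pairs of libraries, 4 pairs differed by less than sampling noise (chi-square per degree of freedom 0.397 to 0.505, against 2.02 for the next closest pair), and 3 of these pairs joined libraries labelled as different groups. The pairs were control 6 h replicate 1 with EGF 24 h replicate 2, control 6 h replicate 2 with AII 24 h replicate 4, EGF 6 h replicate 1 with AII + EGF 6 h replicate 4, and EGF 6 h replicates 2 and 6. All 8 of these libraries were left out. The next closest pairs were AII 6 h replicates 1 and 2 (2.02) and EGF 6 h replicates 3 and 4 (3.32). These were kept and counted as separate libraries. On a scale from AII 6 h (0) to AII + EGF 6 h (1) over 1489 genes, without the 8 genes of interest, replicate 6 of the group labelled AII 6 h had a position of 0.855 and replicate 6 of AII + EGF 6 h one of −0.00584, so that these 2 libraries went against their labels and were also left out. At 6 h this left 4 control, 5 AII, 3 EGF and 4 AII + EGF libraries, and at 24 h 6, 5, 5 and 6. The transgene AGTR1 was at 3913 to 15975 CPM (counts scaled to a common library size), and KRT8, KRT18, VIM, NEFL and NEFM, which HEK293 cells are known to express, were detected in all 38 libraries. Defining markers of other cells were at most at 1.44 CPM. COL1A2 was at 0 in 34, PTPRC in 31, PECAM1 and CDH5 in 14 each, PDGFRB in 3 and DCN in 1 of the 38 libraries.

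The DNA letters to which TEAD factors bind, GGAATG on either strand, were sought in the 250 bases before each transcript start in RefSeq (GRCh38.p14), where 7 of the 8 genes matched an entry and CCN1 had none. CCN2 held 3 matches and ANKRD1 held 2. These promoters are shown, on the minus strand and 5′ to 3′, because they hold the motif most often among the 7 genes, and the capitals mark the motif. The CCN2 promoter is chr6:131951373-131951622 and the ANKRD1 promoter is chr10:90921088-90921337.
CCN2: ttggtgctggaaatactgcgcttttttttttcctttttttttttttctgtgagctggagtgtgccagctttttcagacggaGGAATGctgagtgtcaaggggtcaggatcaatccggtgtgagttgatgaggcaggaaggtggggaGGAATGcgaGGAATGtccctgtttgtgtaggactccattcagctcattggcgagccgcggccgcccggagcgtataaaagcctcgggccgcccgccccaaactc
ANKRD1: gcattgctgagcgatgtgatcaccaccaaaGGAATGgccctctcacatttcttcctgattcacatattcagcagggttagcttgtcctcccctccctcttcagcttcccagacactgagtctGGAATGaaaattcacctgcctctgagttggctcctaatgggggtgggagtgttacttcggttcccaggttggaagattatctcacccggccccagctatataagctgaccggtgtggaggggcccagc
The CCN2 matches began 169, 104 and 95 bases before the start and the ANKRD1 matches 220 and 128 bases before it. Second starts of AMOTL2, AJUBA and AXL held 1 match each, and none was found in this window of AMOTL1, LATS2 and the first starts of AMOTL2, AJUBA and AXL. Of all 35116 RefSeq promoter windows, 11.9% held at least 1 GGAATG, 0.94% at least 2 and 0.0826% at least 3. The letters TGANTCA (either strand, in 6.57% of windows) were sought as a loose form of the AP-1 site, with any base at N. The ANKRD1 window held 1 match, apart from both TEAD motifs, with T at N, where the AP-1 reporter of the paper has G. No match was found in the other members' windows. The SRF CArG box (1.16% of windows) matched in none of them. A match describes letters only, and binding was not measured.

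Of the 8 genes, 3 rose under AII + EGF at 6 h: CCN1 to 1.84-fold, CCN2 to 1.95-fold and LATS2 to 1.72-fold of the control. In this comparison 12% of all tested genes were called, and 6.45% were called higher. AJUBA, which encodes an inhibitor of LATS kinases, was lower and AMOTL1 higher by slightly less than 1.5-fold. Neither AII nor EGF alone changed any of the genes past the thresholds at 6 h, where 0.469% and 1.94% of all tested genes were called. No stimulus did so at 24 h, where 0% (AII), 0.245% (EGF) and 2.9% (AII + EGF) of all tested genes were called. Calls required 3 things: an adjusted p under 0.01, a difference of 1.5-fold or more, and a mean above 5 CPM in whichever group was higher. The adjusted p came from edgeR (quasi-likelihood test, Benjamini-Hochberg over all 19626 tested genes). ANKRD1 and AXL stayed below 5 CPM in all groups, and CCN2 in all but AII + EGF 6 h, so they could not be called there.

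**Figure D1:**
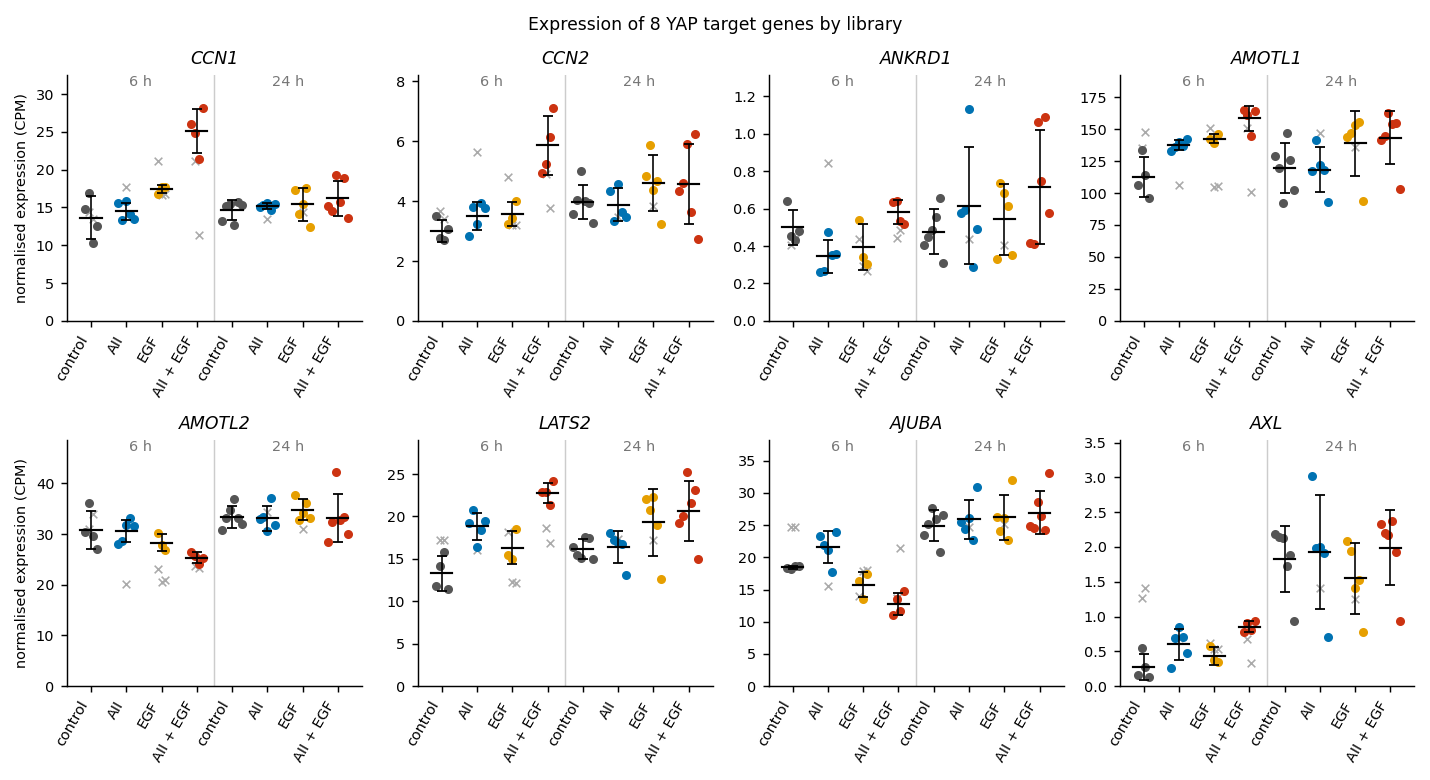
Expression of the 8 genes in CPM (y axis, from 0) in the 8 groups of treatment and time (x axis). Filled points are the 38 libraries used, horizontal lines and bars are means and SD, and grey crosses are the 10 libraries left out, scaled with all 48. CCN1 stands highest in the 4 AII + EGF 6 h libraries (21.3 to 28.2 CPM), and all control libraries used have more AXL and AJUBA at 24 h than at 6 h.

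CCN1 and CCN2 encode secreted matricellular proteins that bind integrins and growth factors and are the most widely used readouts of YAP and TAZ. In the 4 control 6 h libraries CCN1 was at 14.8, 16.9, 10.3 and 12.5 CPM (13.6 ± 2.86, SD, n = 4). Under AII it was at 15.5, 13.4, 15.8, 14.1 and 13.5 CPM (14.5 ± 1.13, n = 5), within the range of the controls. Under EGF it was at 16.8, 17.7 and 17.7 CPM (17.4 ± 0.498, n = 3), and 1 control library reached into that range. Under AII + EGF it was at 26.1, 24.9, 21.3 and 28.2 CPM (25.1 ± 2.86, n = 4), and all of these libraries lay above every other 6 h library. The log2 change of CCN1 under AII + EGF against control was 0.88 ± 0.126 (SE, edgeR adjusted p = 6.31e-07). Under AII it was 0.08 with a 95% interval from −0.16 to 0.33, and under EGF 0.35 with an interval from 0.08 to 0.62 (edgeR adjusted p = 0.849 and 0.127). At 24 h the means of CCN1 were 14.6 ± 1.3 CPM in control, 15.2 ± 0.382 under AII, 15.4 ± 2.18 under EGF and 16.2 ± 2.36 under AII + EGF, with overlapping libraries and a log2 change under AII + EGF of 0.15 (95% interval −0.06 to 0.36).

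CCN2 was expressed at a lower level, at 3.51, 2.78, 2.69 and 3.07 CPM in the control 6 h libraries (3.01 ± 0.37, n = 4). Under AII it was at 3.52 ± 0.465 CPM (n = 5) and under EGF at 3.56 ± 0.401 CPM (n = 3), and both groups overlapped the controls. Under AII + EGF it was at 4.93, 5.25, 6.15 and 7.13 CPM (5.86 ± 0.988, n = 4), above every other 6 h library. The log2 change of CCN2 under AII + EGF was 0.96 ± 0.197 (edgeR adjusted p = 1.80e-04), and the mean of 5.86 CPM was only just above the abundance limit. The changes under AII (0.22, 95% interval −0.16 to 0.61) and EGF (0.24, −0.19 to 0.67) were not called, and with means under 5 CPM they could not be. At 24 h the means ran from 3.88 CPM under AII to 4.6 CPM under EGF and the groups overlapped. Both genes were still called at 6 h with all 48 libraries as labelled, where the change was 0.68 for CCN1 and 0.73 for CCN2 on the log2 scale.

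LATS2 encodes one of the kinases that phosphorylate YAP, and its transcription is a known negative feedback of the pathway. At 6 h LATS2 was at 11.8, 14.1, 15.8 and 11.4 CPM in control (13.3 ± 2.07, n = 4). Under AII it was at 19.3, 20.7, 16.4, 18.4 and 19.5 CPM (18.9 ± 1.59, n = 5), above all control libraries. Under EGF it was at 15.5, 15 and 18.6 CPM (16.3 ± 1.94, n = 3), overlapping the controls. Under AII + EGF it was at 22.8, 22.9, 21.3 and 24.2 CPM (22.8 ± 1.17, n = 4), above every other 6 h library. The log2 change was 0.78 ± 0.143 under AII + EGF (edgeR adjusted p = 3.63e-05), 0.51 ± 0.136 under AII (adjusted p = 0.0372, not called) and 0.30 ± 0.153 under EGF (adjusted p = 0.305). With all 48 libraries as labelled the change under AII + EGF was 0.52, below 1.5-fold, and LATS2 was not called. At 24 h the log2 change under AII + EGF was 0.36 ± 0.115 (adjusted p = 0.0255, not called), from 16.2 ± 1.16 CPM in control to 20.7 ± 3.54 CPM (n = 6 each). In 14 other settings this 24 h change was 0.34 to 0.43, with adjusted p (edgeR or DESeq2) from 5.15e-04 to 0.0693. It stayed below 1.5-fold and was called in none. By run of consecutive sample titles, the 24 h difference in log2(CPM + 0.5) was 0.29, 0.50, 0.40 and −0.002 (runs 2, 3, 6 and 8).

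AJUBA encodes a LIM domain adaptor that binds LATS kinases and limits their activity. It was steady in the control 6 h libraries, at 18.4, 18.2, 18.7 and 18.7 CPM (18.5 ± 0.236, n = 4). Under AII it was at 23.3, 22, 21.2, 17.7 and 24.0 CPM (21.6 ± 2.46, n = 5), with 1 library below the controls. Under EGF it was at 16.3, 13.6 and 17.4 CPM (15.8 ± 1.98, n = 3), and under AII + EGF at 11.1, 13.5, 11.7 and 14.7 CPM (12.8 ± 1.66, n = 4). All EGF and AII + EGF libraries lay below all controls, whereas 4 of the 5 AII libraries lay above them. The log2 change of AJUBA under AII + EGF was −0.53 ± 0.122 (edgeR adjusted p = 6.47e-04), which is 1.45-fold lower and so was not called, and the values under AII (0.23) and EGF (−0.23) did not pass. Without AII + EGF 6 h replicate 5 the change was −0.61 and AJUBA was called, and with the 2 libraries that went against their labels kept it was −0.34 (adjusted p = 0.0802). At 24 h the means were 24.9 to 26.9 CPM in all 4 groups, which overlapped.

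AMOTL1 and AMOTL2 encode angiomotin-like scaffolds of cell junctions that bind YAP and hold it in the cytoplasm. AMOTL1 was at 106, 134, 114 and 96.1 CPM in control at 6 h (112 ± 15.9, n = 4). The AII group had a mean of 137 ± 3.67 CPM (n = 5) and the EGF group one of 142 ± 3.46 CPM (n = 3). With both stimuli the libraries were at 165, 161, 144 and 165 CPM (159 ± 9.68, n = 4). The EGF and AII + EGF libraries lay above all controls, and 1 AII library did not. The log2 change under AII + EGF was 0.50 ± 0.139 (edgeR adjusted p = 0.00493), at 1.41-fold below the limit of 1.5-fold, and AMOTL1 was called only without control 6 h replicate 4 or without a fold minimum. AMOTL2 was at 30.4, 36.1, 29.6 and 27 CPM in control (30.8 ± 3.81, n = 4) and at 26.4, 25.8, 24.0 and 25.3 CPM under AII + EGF (25.4 ± 1.01, n = 4). These libraries did not overlap, and the log2 change of AMOTL2 of −0.28 ± 0.0975 did not pass (edgeR adjusted p = 0.0242). Neither angiomotin-like gene was called.

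ANKRD1, the gene of a muscle ankyrin repeat protein induced by stretch, was close to the detection limit with 5 to 26 fragments in each library. It was at 0.638, 0.456, 0.43 and 0.482 CPM in control at 6 h and at 0.634, 0.643, 0.535 and 0.516 CPM under AII + EGF, so that the groups overlapped. The log2 change was 0.22 with a wide 95% interval from −0.51 to 0.95, and it was not called. All group means of ANKRD1 were between 0.344 CPM (AII 6 h) and 0.717 CPM (AII + EGF 24 h), below the abundance limit.

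AXL encodes a receptor tyrosine kinase of the TAM family that binds GAS6. The control 6 h libraries held 3, 12, 5 and 3 AXL fragments (0.16, 0.547, 0.269 and 0.131 CPM). Under AII + EGF the libraries held 16, 17, 15 and 18 fragments (0.781, 0.91, 0.802 and 0.929 CPM), all above the controls. The log2 change of 1.60 ± 0.46 passed the adjusted p (edgeR, 0.00624), but AXL stayed below 5 CPM and was not called. The 2 control 6 h libraries left out were each near-identical to a 24 h library. Scaled with all 48 libraries, they held AXL at 1.27 and 1.41 CPM and AJUBA at 24.7 and 24.6 CPM. These values lie in the range of the 24 h libraries. For AXL no kept 24 h library lay between 0.934 and 1.41 CPM in the scaling of the 38 libraries. With all 48 libraries as labelled the log2 change of AXL was 0.08 (adjusted p = 0.896).

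**Figure D2:**
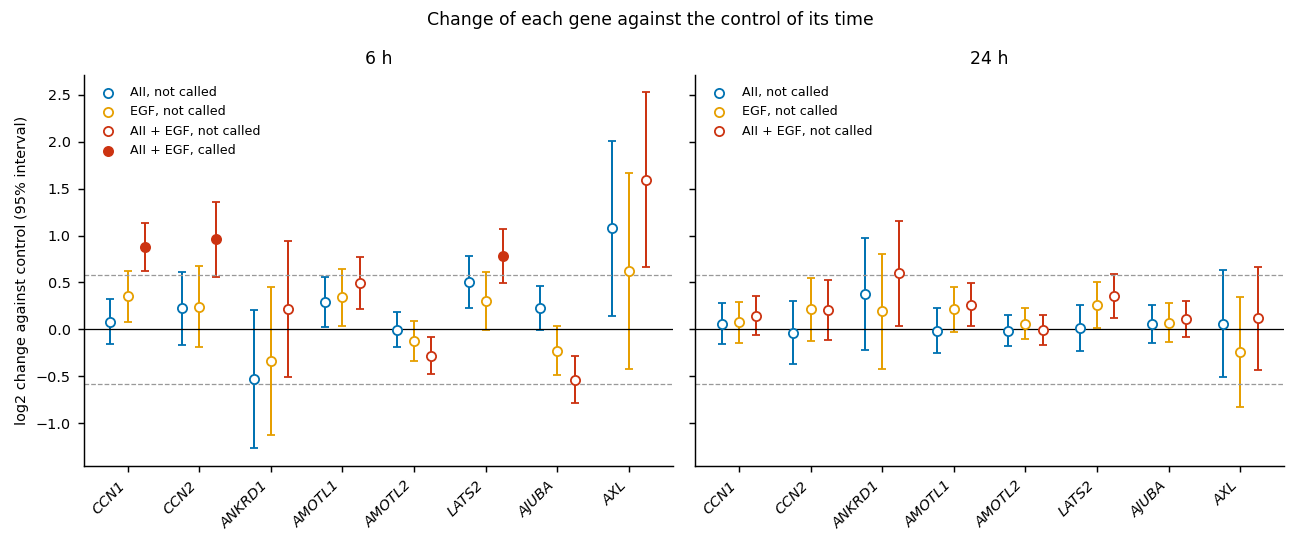
Log2 change (y axis) of each gene (x axis) against the control of its time under AII, EGF and AII + EGF, at 6 h (left) and 24 h (right). Points are edgeR estimates with 95% intervals, filled where called, and dashed lines mark 1.5-fold. CCN1 (0.88), CCN2 (0.96) and LATS2 (0.78) are the only filled points.

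Counted over the genes, 0 of 8 were called under AII at 6 h, where 0.469% of all tested genes were called, and 0 of 8 under EGF, where 1.94% were (3 and 2 of the 8 had an unadjusted p under 0.05). DESeq2 also called 0 in both comparisons. In these comparisons and in those at 24 h, CCN2, ANKRD1 and AXL were too low to be called. In all of them 0 of 8 genes passed edgeR's adjusted p alone in the main fit. Under AII + EGF at 24 h LATS2 and AMOTL1 passed it in some other settings. Their lowest adjusted p (edgeR or DESeq2) were 5.15e-04 and 0.00671, with changes below 1.5-fold. Under AII + EGF 3 of 8 were called, against 12% of all genes (6.45% in the higher direction), and 6 of 8 passed the adjusted p alone, against 23.4%. The 4 AII + EGF libraries did not overlap the 4 control libraries for 7 of the 8 genes, 5 higher and 2 lower, against 33.4% of all tested genes in either direction. The median log2 change of the 8 genes was 0.64 under AII + EGF at 6 h, 0.23 under AII and 0.27 under EGF, and the medians over all tested genes were −0.03, −0.01 and −0.01. These comparisons share the control libraries. The 8 genes were chosen with earlier results of these data known, so these counts are descriptions and no test of enrichment. At 24 h edgeR and DESeq2 called 0 of 8 under AII (0% of all genes called), EGF (0.245%) and AII + EGF (2.9%), and 0, 1 and 3 of the genes had an unadjusted p under 0.05.

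Sample titles fall into 8 runs of consecutive numbers, which the labels do not call batches. Within the 2 runs that held kept control and AII + EGF libraries at 6 h, the difference on the log2(CPM + 0.5) scale was 0.42 (run 4) and 1.41 (run 5) for CCN1. It was 0.87 and 1.26 for CCN2, 0.70 and 0.60 for LATS2 and −0.62 and −0.33 for AJUBA. Every one of these genes kept its direction in both runs, from 1 AII + EGF library against 1 or 2 controls. With the title run as a block in the fit, the log2 changes were 0.85, 1.07, 0.65 and −0.58 in the same order.

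**Figure D3:**
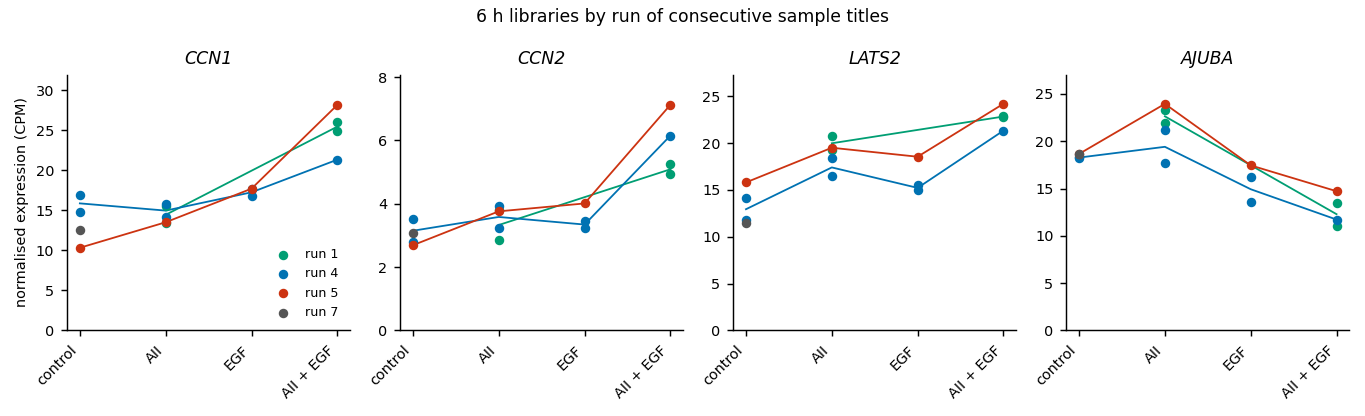
Expression (CPM, y axis from 0) of CCN1, CCN2, LATS2 and AJUBA in the kept 6 h libraries by treatment (x axis). Points are libraries coloured by run of consecutive titles and lines join the means of each run, where run 1 held no kept control or EGF library and run 7 only a control. In runs 4 and 5 alike CCN1, CCN2 and LATS2 are higher and AJUBA is lower under AII + EGF than in control.

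The comparison of AII + EGF with each single stimulus asked what the second stimulus added. Against AII at 6 h, CCN1 (log2 change 0.80 ± 0.118) and CCN2 (0.74 ± 0.183) rose and AJUBA (−0.76 ± 0.117) fell, with edgeR adjusted p of 1.99e-06, 0.00230 and 3.33e-06. In this fit 3 of 8 genes compare with 7.6% of all tested genes, and 7 of the 8 genes did not overlap between the groups, against 27.9%. LATS2 was 0.27 ± 0.133 higher (adjusted p = 0.131). CCN2 was not called without AII + EGF 6 h replicate 5 (0.63, adjusted p = 0.0180). With the 2 libraries that went against their labels kept, the changes of CCN1, CCN2 and AJUBA were 0.57, 0.49 and −0.50 and 0 of 8 genes were called. Against EGF at 6 h edgeR called 0 of 8 genes, where 2.92% of all genes were called and 5 of the 8 had an unadjusted p under 0.05. CCN1 was 0.53 ± 0.135 higher (adjusted p = 0.00768), at 1.44-fold just under the limit, CCN2 was 0.72 ± 0.209 higher (adjusted p = 0.0212) and LATS2 0.48 ± 0.153 higher (adjusted p = 0.0358). DESeq2 called CCN2 in this comparison. At 24 h edgeR and DESeq2 called 0 of 8 genes against AII (1.45% of all genes) and against EGF (0.0917%), with 2 and 0 at an unadjusted p under 0.05.

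The interaction of both stimuli tests whether the joint log2 change exceeded the sum of the single ones. At 6 h edgeR and DESeq2 called 0 of 8 genes (0.229% of all genes by edgeR), and 3 had an unadjusted p under 0.05. The interaction was 0.45 ± 0.181 for CCN1 (adjusted p = 0.346), 0.49 ± 0.282 for CCN2 (adjusted p = 0.602), −0.02 ± 0.203 for LATS2 (adjusted p = 0.989), −0.53 ± 0.173 for AJUBA (adjusted p = 0.171) and 1.08 ± 0.531 for ANKRD1 (adjusted p = 0.506). CCN1, ANKRD1 and AJUBA were the 3 with an unadjusted p under 0.05. On the linear scale the mean under AII + EGF exceeded the sum of both single effects by 6.88 ± 2.1 CPM (SE) for CCN1 and 1.8 ± 0.613 CPM for CCN2. For ANKRD1, at 5 to 26 fragments a library, it did so by 0.344 ± 0.1 CPM, with the AII and EGF means (0.344 and 0.395 CPM) lower than the control mean (0.502 CPM). For AJUBA the same difference was −6.16 ± 1.79 CPM, and for LATS2 the excess of 0.901 ± 1.78 CPM was within its error. With all 48 libraries as labelled the excess was 2.97 CPM for CCN1, 0.986 CPM for CCN2, 0.222 CPM for ANKRD1 and −1.88 CPM for AJUBA. At 24 h the excess was under 1 SE for all 8 genes, and edgeR and DESeq2 called 0 of 8 interactions (0% of all genes), with 0 at an unadjusted p under 0.05.

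Between the times, the response to AII + EGF differed for 2 of 8 genes, against 11.6% of all tested genes. The log2 change of CCN1 was 0.73 ± 0.162 smaller at 24 h than at 6 h (−0.73, edgeR adjusted p = 7.24e-04), and that of AJUBA was 0.65 ± 0.155 larger (adjusted p = 0.00169). CCN2 gave −0.76 ± 0.252 (adjusted p = 0.0232) and LATS2 −0.43 ± 0.183 (adjusted p = 0.0842), which were not called (CCN2 was with the title run as a block, −0.88). AJUBA was not called without AII + EGF 6 h replicate 1 or AII + EGF 24 h replicate 6 (0.58 in each case), and with the 2 libraries that went against their labels kept, neither gene was (−0.56 for CCN1, 0.45 for AJUBA).

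In the control cells themselves edgeR called 0 of 8 genes between 24 h and 6 h, where 6.73% of all genes were called and 4 of the 8 had an unadjusted p under 0.05 (DESeq2 called 0). AXL was higher by 2.68 ± 0.402 on the log2 scale (adjusted p = 5.47e-06), from 0.277 ± 0.19 to 1.83 ± 0.475 CPM, but below the abundance limit. AJUBA was higher by 0.43 ± 0.11 (adjusted p = 0.00254), from 18.5 to 24.9 CPM, below 1.5-fold. Both genes had no overlap between the times, against 15.1% of all genes. No run of titles held both times, so that time and run cannot be told apart. Within the 24 h libraries the 4 of run 8 stood apart for AXL, at 0.703 to 0.934 CPM against 1.41 to 3.01 CPM in the other 18. LATS2 was narrowly apart, at 12.6 to 15 against 15.1 to 25.2 CPM. AJUBA was at 26.5 to 33 against 20.8 to 28.6 CPM and overlapped, as did the remaining members. Without runs 7 and 8 the AXL difference between control times was 2.58.

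Ordered by group mean, CCN1 ran from 25.1 CPM under AII + EGF at 6 h through EGF 6 h (17.4) to control 6 h (13.6), and only the first step separated groups without overlap. For CCN2 the order ran from AII + EGF 6 h to control 6 h and for LATS2 likewise, but all 7 neighbouring groups overlapped. For AJUBA the 24 h groups stood highest and AII + EGF 6 h lowest, with a 2.11-fold span, and only control 6 h and EGF 6 h were neighbours without overlap. AXL had the widest span of group means (7.2-fold), and AMOTL1 (1.41-fold) and AMOTL2 (1.37-fold) the narrowest. Pearson's r was taken over the 8 group means of log2(CPM + 0.5), which share libraries and the time contrast. It was 0.97 between AMOTL2 and AJUBA, 0.88 between LATS2 and both CCN2 and AMOTL1, and 0.80 between CCN1 and CCN2. Between CCN1 and AMOTL2 it was −0.78 and between CCN1 and AJUBA −0.71.

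By the same measure over 8 group means, the genes most like CCN1 among 7390 genes were CEMIP (r = 0.997), whose product takes part in hyaluronan breakdown, RGCC (0.991) and TFPI2 (0.990), a serine protease inhibitor of the extracellular matrix. The CCN1 means were 13.6 to 17.4 CPM in all groups but AII + EGF 6 h (25.1 CPM), and that group weighed heavily in these r. TFPI2 went from 0.497 CPM in control to 1.17 with AII, 3.13 with EGF and 15 with both stimuli at 6 h, and was at 0.933 to 1.5 CPM at 24 h. Most like CCN2 were JCAD (0.988), IVNS1ABP (0.987) and PCDH17 (0.984), a protocadherin, and JCAD was at 27.7, 31.8, 34.3 and 50.5 CPM in the same order at 6 h. Most like ANKRD1 were JUN (0.941), an AP-1 subunit, MICALL2 (0.908) and LYRM1 (0.893), and the low counts of ANKRD1 limit this likeness.

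The wider pathway was described with 5 lists at the same thresholds. These lists were also chosen with earlier results of these data known, so their counts beside the shares of all genes test no enrichment. Of 16 genes for Hippo kinases, adaptors and upstream cadherins, 4 rose and 1 fell under AII + EGF at 6 h, where 12% of all tested genes were called and 6.45% were called higher. The cadherin DCHS1 rose (2.19 ± 0.239, from 3.18 ± 0.366 to 14.5 ± 3.03 CPM, n = 4 each) while FAT4, the cadherin that binds it, fell (−1.55 ± 0.174, from 16.3 ± 2.52 to 5.59 ± 0.264 CPM). The adaptor WWC2 (0.81 ± 0.119) and the kinase STK4, or MST1 (0.67 ± 0.111), also rose. The median log2 change of the 16 genes was 0.34, against −0.03 over all tested genes. Of 8 tested relatives of the members, WTIP, a LIM protein of the AJUBA family, rose (1.49 ± 0.137, from 6.52 ± 0.643 to 18.4 ± 2.66 CPM) where AJUBA was at −0.53, and AMOT, the founding angiomotin, fell (−0.86 ± 0.16, from 7.47 ± 0.507 to 4.11 ± 0.925 CPM). Their median was 0.01.

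Of 9 tested coactivators and DNA partners 1 was called under AII + EGF, a share near the 12% of all tested genes: TEAD3 (0.93 ± 0.14), which was at 7.47 ± 0.462 CPM in control, 11.4 ± 0.644 with AII, 11 ± 0.403 with EGF and 14.2 ± 2.61 with both stimuli. YAP1 and WWTR1, looked up after the values were seen, gave means of 44.1 ± 3.4 and 47.1 ± 7.46 CPM (control) against 64.8 ± 2.42 and 54.9 ± 4.33 CPM (both stimuli), with log2 changes of 0.55 (adjusted p = 4.74e-06, below 1.5-fold) and 0.22 (adjusted p = 0.175). Of 15 other tested YAP or TAZ targets, 6 rose and none fell, against 6.45% of all tested genes called higher. IGFBP3, a binding protein of insulin-like growth factors, rose most (2.56 ± 0.206, from 1.28 ± 0.447 to 7.64 ± 1.47 CPM), then F3, tissue factor (2.03 ± 0.155, from 2.75 ± 0.497 to 11.2 ± 1.54 CPM), the GTPase regulator DOCK5 (1.11 ± 0.144) and RBMS3 (0.88 ± 0.15). The median of these 15 was 0.36. Of the other CCN genes none of 3 tested was called, and their median was −0.31. All adjusted p of the called genes in these lists were by edgeR, and the highest was 1.20e-04.

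Under AII alone at 6 h, where 0.469% of all tested genes were called, 2 of the 51 tested list genes were called, TEAD3 (0.62 ± 0.134, adjusted p = 0.00624) and CCDC80, an extracellular matrix protein (1.36 ± 0.229, adjusted p = 2.95e-04), which was at 15.9 ± 1.17 CPM under AII and 7.35 ± 0.617 CPM under AII + EGF. Under EGF alone DCHS1 (1.08 ± 0.252, adjusted p = 0.00486) and WTIP (0.90 ± 0.145, adjusted p = 4.10e-05) were called by edgeR, where 1.94% of all tested genes were. With all 48 libraries as labelled TEAD3 and CCDC80 were not called under AII and DCHS1 was not called under EGF, whereas WTIP, AMOT and F3 were. With those 48 libraries 9 list genes were called under AII + EGF at 6 h. Among them were DCHS1, FAT4, WWC2, WTIP, AMOT, IGFBP3, F3 and DOCK5 but not TEAD3, STK4 or RBMS3. In the 38 libraries none of the 51 tested list genes was called against control at 24 h under any stimulus. Of all tested genes 0% (AII), 0.245% (EGF) and 2.9% (AII + EGF) were called there.

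**Figure D4:**
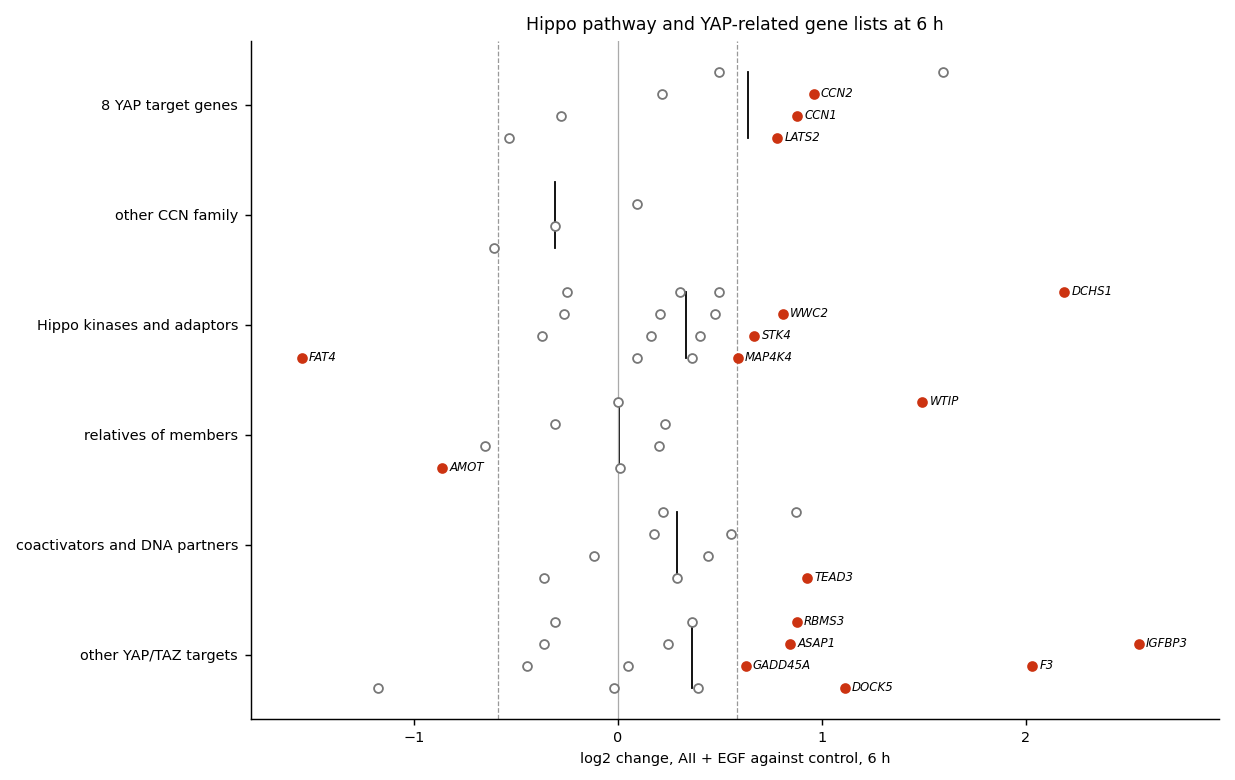
Log2 change under AII + EGF against control at 6 h (x axis) for the 8 genes and the tested genes of 5 pathway lists (rows, vertical offset only to separate points). Filled red points with names are called genes, vertical black lines are list medians and dashed lines mark 1.5-fold. The called genes reach from FAT4 (−1.55) to IGFBP3 (2.56).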

How the data were processed

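RNA of 48 libraries of 1 AT1R-expressing HEK293 clone had been sequenced with paired ends. The deposited values are raw counts of fragments per Ensembl gene, which the authors made with HISAT2 2.1.0 (hg38) and featureCounts, with no normalization. Strandedness and the handling of multi-mapping reads are not given in the sources used here. All count columns were matched to samples by title (0 per-sample columns not used).

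The members and lists were chosen with earlier results of these data known. The 38 kept libraries (8 left out as near-identical pairs, 2 as going against their labels) were fitted together in edgeR 4.0.16 (R 4.3.3) with filterByExpr, TMM factors and the quasi-likelihood test, without covariates. Of 60610 genes 19626 were tested. SE is the absolute log2 change over the root of F. CPM were scaled with TMM factors except for the markers. Near-identical libraries were sought by chi-square over genes with at least 100 counts in a pair.

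Named beside the 8 members were, per list and comparison against control, up to 4 called genes by largest absolute change (the plot labels all called genes), and the 3 genes most like CCN1, CCN2 and ANKRD1 among genes above 5 CPM with a 1.5-fold span of group means. Replicate numbers followed the order of deposition and paired no samples. The steps were tested on simulated data. Alternatives were 14 settings, among them DESeq2 1.42.0, RLE factors, other filters, call rules and library sets and a title-run block, and leaving out each of the 38 libraries. Library totals of 17.8 to 30 M set the precision, and the intervals cover the spread between libraries only.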

Additional observations from a re-analysis of the deposited data

Results flagged for a closer look

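Of 56 sets of 4 to 6 libraries of one gene and group tested with Dixon's criterion at 95%, 6 had a library far from the others, where chance gives about 1 in 20. AMOTL1 was low in EGF 24 h replicate 6 (94.1 CPM, nearest library 144 CPM) and in AII + EGF 24 h replicate 6 (103 CPM, nearest 141 CPM). LATS2 was low in AII 24 h replicate 6 (13.2 CPM, nearest 16.7 CPM), and AXL was low in control 24 h replicate 6 (0.933 CPM, nearest 1.72 CPM) and in AII + EGF 24 h replicate 6 (0.934 CPM, nearest 1.93 CPM). These 5 values come from the 4 libraries of run 8 of consecutive titles. AMOTL2 was high in AII + EGF 24 h replicate 3 (42.3 CPM, nearest 33.3 CPM).

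The response to AII + EGF differed between 24 h and 6 h for CCN1 (−0.73 on the log2 scale) and AJUBA (0.65), by edgeR's test of the difference (adjusted p = 7.24e-04 and 0.00169).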

How the results depend on the processing

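Of 3125 log2 changes of single genes under alternatives, 3090 kept their side of the call and none of the called values changed sign; 18 lost and 17 gained a call, and 159 changed sign while called in neither setting. The 3 genes called under AII + EGF at 6 h became 5 with no fold minimum, and leaving out single libraries gave 3 to 4. Of these 3 genes CCN1 and CCN2 were called in all 14 other settings and LATS2 in 12 of them. Against AII at 6 h the 3 became 0 with all 48 libraries as labelled, with the 2 doubtful libraries kept (40 libraries) and with the near-identical EGF 6 h pair merged (47 libraries), and leaving out libraries gave 2 to 3. Against EGF at 6 h the 0 became 1 without title runs 7 and 8, with the run as a block, with DESeq2, with only the groups compared, at an adjusted p under 0.05 and with no fold minimum, and leaving out libraries gave 0 to 1. Between the control times 0 became 1 with no fold or no abundance minimum. For the AII + EGF response between times 2 became 1 with all 48 or 47 libraries and 0 with 40, and leaving out libraries gave 1 to 3. No other count of members moved by over 1.5 times. The block by title run was not run for control 24 h against 6 h, since no run holds both times.

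With all 48 libraries as labelled, fewer list genes were called under AII + EGF at 6 h. The count went from 5 to 3 for Hippo kinases and from 1 to 0 for coactivators, and other targets lost calls too, RBMS3 among them. Under AII the count went from 1 to 0 for coactivators and for other targets. Under EGF it went from 1 to 0 for Hippo kinases, from 1 to 2 for relatives and from 0 to 1 for other targets. The linear excess at 6 h was then 2.97 (CCN1), 0.986 (CCN2), 0.222 (ANKRD1), 5.54 (AMOTL1), 2.21 (AMOTL2) and −1.88 CPM (AJUBA), where AMOTL1 and AMOTL2, not past 2 SE, changed sign. The causes of these changes were not tested. No paired analysis was possible because the labels carry no replicate numbers that match samples across groups; the title runs, which are not labelled as batches, were used as a block instead.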
